A study of Mus musculus with 2 samples.

Results

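The fatty acid elongases and desaturases of the liver were followed as 9 genes, *Elovl1*, *Elovl2*, *Elovl3*, *Elovl5*, *Elovl6*, *Elovl7*, *Fads1*, *Fads2* and *Fads3*, chosen by symbol from the 45777 genes of a transcript table of mouse liver. All 9 were in the table with 21 annotated transcripts between them, and all 9 had at least 10 counts in at least 1 library, the minimum used here for a ratio, as did 15857 genes in all. Livers came from C57BL/6 N mice that were 7 weeks old at the start of a high-fat diet (HFD), stayed on it for 18 weeks and received an adeno-associated virus (AAV) by the retro-orbital route at week 13, 5 weeks before the end. The control virus carried GFP (AAV-GFP), and the other (AAV-*Wee1-AS*) carried *Wee1-AS*, a long noncoding RNA from the strand opposite to *Wee1*. Both groups were thus fed the HFD and both overexpressed a vector-borne gene, and no group on another diet or without virus was analysed here. The vector for these HFD-fed mice had an AAV9 capsid and a CMV promoter, which is not restricted to hepatocytes, and neither the sex of these mice nor pooling of animals is given in the sources used here. One library per group was analysed, although the series mentions 4 liver samples in its design, so every difference below is between 2 libraries, has no replicate check and carries no p-value. *Wee1-AS* itself was not analysed here.

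Elongases of the ELOVL family catalyze the first and rate-limiting step of fatty acid elongation at the endoplasmic reticulum, the condensation of a fatty acyl-CoA with malonyl-CoA, after which a reductase, a dehydratase and a second reductase complete the added unit. Each ELOVL protein prefers acyl chains of a certain length and saturation. The front-end desaturases FADS1 and FADS2 insert double bonds between an existing double bond and the carboxyl end, and together with ELOVL2 and ELOVL5 they build arachidonic acid and docosahexaenoic acid from dietary essential fatty acids. In the liver, *Elovl6*, *Elovl5*, *Fads1* and *Fads2* are known targets of SREBP-1c, the lipogenic transcription factor that insulin and the oxysterol receptor LXR induce and that polyunsaturated fatty acids restrain.

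The sequence ahead of the start site was examined first, since some of the members are known targets of SREBP-1c. RefSeq promoter entries of the mouse build GRCm38.p6 matched 7 of the 9 genes with 9 windows, and *Elovl3* and *Fads1* were without an entry. In each window the 250 bases upstream of the start site were searched on both strands for a sterol regulatory element (TCACNCCAC), the CCAAT box (CCAAT), an Sp1-type GC box (GGGCGG), an E-box (CACGTG), and direct repeats of the half-site AGGTCA spaced by 1 base (DR1) or 4 bases (DR4), which share these letters and so can overlap. The windows of *Elovl6* and *Elovl2*, the members with the highest ratios below, and of *Elovl1* and *Fads3*, which were among the lowest, are shown 5′ to 3′ on the strand of the gene, with matches on either strand in capitals, and that of *Elovl5* is shown for the E-box. *Elovl1* and *Elovl2* each have 2 windows, of which the more upstream one is shown. They lie at chr3:129532136-129532385 on the plus strand (*Elovl6*), chr13:41220404-41220653 on the minus strand (*Elovl2*), chr4:118427843-118428092 on the plus strand (*Elovl1*), chr19:10041298-10041547 on the plus strand (*Fads3*) and chr9:77917115-77917364 on the plus strand (*Elovl5*).
Elovl6: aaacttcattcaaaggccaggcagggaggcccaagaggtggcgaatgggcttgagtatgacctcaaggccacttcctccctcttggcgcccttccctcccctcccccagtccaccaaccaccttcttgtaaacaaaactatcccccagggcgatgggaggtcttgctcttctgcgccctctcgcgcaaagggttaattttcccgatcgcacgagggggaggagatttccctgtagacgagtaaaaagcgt
Elovl2: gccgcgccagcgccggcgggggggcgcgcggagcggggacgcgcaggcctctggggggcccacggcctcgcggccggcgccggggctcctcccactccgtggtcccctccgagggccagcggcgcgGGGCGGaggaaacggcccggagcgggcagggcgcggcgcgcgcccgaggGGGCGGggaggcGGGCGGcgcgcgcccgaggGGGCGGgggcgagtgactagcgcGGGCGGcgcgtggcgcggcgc
Elovl1: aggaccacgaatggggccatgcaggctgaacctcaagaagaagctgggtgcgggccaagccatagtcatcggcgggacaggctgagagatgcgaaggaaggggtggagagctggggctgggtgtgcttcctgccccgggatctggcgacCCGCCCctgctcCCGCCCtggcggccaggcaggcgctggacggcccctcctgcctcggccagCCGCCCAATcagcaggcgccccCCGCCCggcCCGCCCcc
Fads3: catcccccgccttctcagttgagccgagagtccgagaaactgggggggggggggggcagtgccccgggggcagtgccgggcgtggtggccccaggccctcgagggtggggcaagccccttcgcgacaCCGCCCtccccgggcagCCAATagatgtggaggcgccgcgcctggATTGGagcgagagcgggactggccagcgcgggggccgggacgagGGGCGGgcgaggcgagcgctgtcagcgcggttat
Elovl5: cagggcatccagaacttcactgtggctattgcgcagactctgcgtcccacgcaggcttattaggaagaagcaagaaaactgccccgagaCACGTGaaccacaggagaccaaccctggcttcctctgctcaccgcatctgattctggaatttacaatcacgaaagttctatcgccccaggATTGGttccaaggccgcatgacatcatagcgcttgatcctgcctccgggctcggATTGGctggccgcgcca

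The 250 bases of *Elovl6* held none of the 6 motifs. Of the 9 member windows, 6 held GGGCGG, 3 held CCAAT and 1, that of *Elovl5*, held CACGTG. Of all 32851 promoters in the table, 32.7% held GGGCGG, 33.8% held CCAAT and 6.02% held CACGTG in windows of the same length. TCACNCCAC was in no member window and in 1.05% of all promoters, and the direct repeats were in no member window and in 0.0335% and 0.0152% of all promoters. These matches describe letters in the windows and no binding was measured.

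The levels of the members were compared in TPM, which is scaled by transcript length and is summed here over the transcripts of a gene. The levels spanned more than 3 orders of magnitude, and genes of the polyunsaturated pathway held the first 4 places in both libraries (plot of levels by library). *Fads2*, which encodes the first and rate-limiting desaturase of the pathway, had the highest level, 1323 TPM in the AAV-GFP library and 1078 TPM in the AAV-*Wee1-AS* library. *Elovl5*, which elongates polyunsaturated acyl chains between the desaturation steps, had 534 and 480 TPM, and *Fads1*, which encodes the desaturase that forms arachidonic acid, had 389 and 375 TPM. *Elovl2*, which elongates the longest polyunsaturated chains on the way to docosahexaenoic acid, had 127 TPM in AAV-GFP and 246 TPM in AAV-*Wee1-AS*. These 4 genes of the polyunsaturated pathway lay at percentile 93.6 (*Elovl2*) or above among the 15857 genes in AAV-GFP and at percentile 96.8 (*Elovl2*) or above in AAV-*Wee1-AS*.

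**Figure D1:**
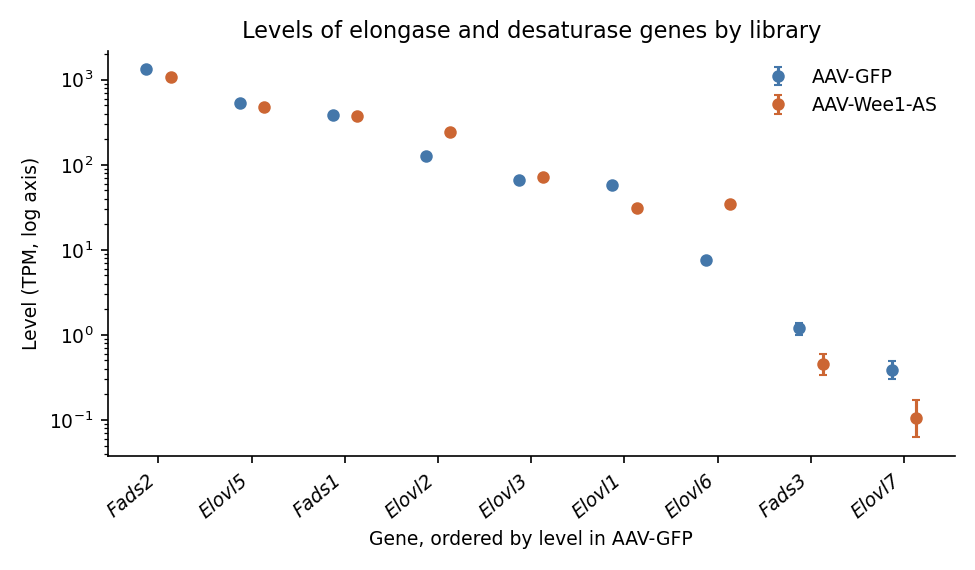
Levels of the 9 genes in TPM (vertical log axis) in the AAV-GFP library (blue) and the AAV-Wee1-AS library (orange), 1 library per group. Points are TPM summed over the transcripts of a gene and bars are 95% Poisson intervals of the count, which cover counting error only. The order of the genes is the same in both libraries except that Elovl6 stands below Elovl1 in AAV-GFP and above it in AAV-Wee1-AS.

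The elongases of saturated and monounsaturated chains were less abundant. *Elovl3*, which makes very-long-chain saturated and monounsaturated acyl chains, had 65.8 TPM in AAV-GFP and 72.6 TPM in AAV-*Wee1-AS*. *Elovl1*, which serves the very-long-chain acyl groups of sphingolipids, had 58.1 and 30.7 TPM. *Elovl6*, which elongates palmitate to stearate, had 7.68 and 34.8 TPM. *Fads3*, which encodes a desaturase of sphingoid bases, had 1.19 and 0.456 TPM, and *Elovl7*, an elongase of saturated long chains, had 0.386 and 0.107 TPM. These last 2 genes lay at percentiles 32.4 and 17.8 of the genes past the count minimum in AAV-GFP and at percentiles 17.8 and 5.30 in AAV-*Wee1-AS*. The order of the 9 genes by level differed between the libraries in the places of *Elovl1* and *Elovl6* only, and no neighbours in either order had overlapping counting intervals. *Elovl1* had 7.56 times the TPM of *Elovl6* in AAV-GFP and 0.881 times its TPM in AAV-*Wee1-AS*.

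For the comparison between libraries, estimated counts were summed per gene and scaled by edgeR's TMM method, and a log2 ratio (AAV-*Wee1-AS* over AAV-GFP) was formed after addition of a prior count of 2. The totals were 55466182 and 48079335 counts. Of the 9 members, 3 had more and 6 had less in AAV-*Wee1-AS*, with a median log2 ratio of -0.13, beside 49.5% higher and 50.5% lower and a median of -0.02 over all 15857 genes. Past 2-fold were 4 of 9, beside 31.0% of all genes. Of these, *Elovl6* was above 2-fold, as were 22.2% of all genes, and *Elovl1*, *Elovl7* and *Fads3* were below 0.5-fold, as were 8.71% of all genes. In bulk liver, fewer cells of a type and less RNA per cell cannot be told apart. The exact (Clopper-Pearson) 95% interval of the ratio covers counting error only. It takes each estimated count as a separate molecule, so any PCR copies among the reads would make it too narrow. The interval excluded equality for all 9, beside 77.1% of all genes, and for 8 with DESeq2 size factors or upper-quartile scaling. It lay above equality for 3 members, beside 39.1% of all genes, and below it for 6, beside 38.0%. It lay wholly past 2-fold for 1 member, *Elovl6*, beside 19.8% of all genes, with 16.0% wholly above 2 and 3.72% wholly below 0.5. At a lower limit of 1.5-fold, *Elovl2* joined the other 4, and 5 of 9 members were past it, beside 55.8% of all genes.

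The largest difference among the members by the scaled counts was that of *Elovl6* (NCBI gene 170439, chromosome 3, 129532386 to 129638495, plus strand, mm10). It had 1506 estimated counts in AAV-GFP and 5785 in AAV-*Wee1-AS*. It was thus 4.61-fold higher with AAV-*Wee1-AS*, a log2 ratio of 2.20 (95% counting interval 2.12 to 2.29), and lay at percentile 95.5 of all genes. With the trends in GC content and length removed, as described below, it was at 1.04, and *Elovl7* then lay farther from equality, at -3.05. *Elovl6* has a single annotated transcript of 5951 bases, so no counts were shared between transcripts of the gene. Relative to *Elovl5*, whose TPM was 69.5 times that of *Elovl6* in AAV-GFP, the distance was 13.8 times in AAV-*Wee1-AS*. The gene *Gm35986*, which lies on the opposite strand and overlaps the first bases of *Elovl6*, had 275 and 157 counts.

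Of the other elongases of saturated and monounsaturated chains, *Elovl1* and *Elovl7* were lower and *Elovl3* was close to equality. *Elovl1* (NCBI gene 54325, chromosome 4, 118426874 to 118432953, plus strand) had 4040 counts in AAV-GFP and 1651 in AAV-*Wee1-AS*, a log2 ratio of -1.03 (-1.11 to -0.94), which spans the 2-fold limit. *Elovl7* (NCBI gene 74559, chromosome 13, 108214326 to 108287109, plus strand) had 70 counts and 17 counts, a log2 ratio of -1.68, and its ratio of 0.313 had a wide counting interval of 0.161 to 0.501. *Elovl3* (NCBI gene 12686, chromosome 19, 46131862 to 46135694, plus strand) had 4102 and 3821 counts, which at the lower total of the AAV-*Wee1-AS* library is a log2 ratio of 0.16 (0.10 to 0.23). With upper-quartile scaling, which moved the median of all genes by -0.20, *Elovl3* was at -0.0451, so its direction was not the same under every scaling.

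Within the polyunsaturated pathway, *Elovl2* was higher by the scaled counts, while *Elovl5*, *Fads1* and *Fads2* were closer to equality. With the GC and length trends removed, *Elovl2* was near equality at 0.05 and *Elovl5* was at -0.76. *Elovl2* (NCBI gene 54326, chromosome 13, 41182382 to 41220403, minus strand) had 16064 counts in AAV-GFP and 26300 in AAV-*Wee1-AS*, 1.97-fold higher with a log2 ratio of 0.97 (0.95 to 1.00). *Elovl5* (NCBI gene 68801, chromosome 9, 77917365 to 77984519, plus strand) had 48847 and 37259 counts, a log2 ratio of -0.13 (-0.15 to -0.11). The TPM of *Elovl2* was 0.238 times that of *Elovl5* in AAV-GFP and 0.511 times in AAV-*Wee1-AS*. *Fads2* (NCBI gene 56473, chromosome 19, 10062765 to 10101503, minus strand) had 126633 and 87472 counts, a log2 ratio of -0.27 (-0.28 to -0.26). *Fads1* (NCBI gene 76267, chromosome 19, 10182877 to 10196874, plus strand) had 44317 and 36243 counts, a log2 ratio of -0.03 (-0.05 to -0.01). With the counts halved, to allow for mates of a read pair that might have been counted separately, the interval of *Fads1* was -0.05 to 0.00188 and included equality. The *Fads2* to *Fads1* ratio of TPM was 3.40 in AAV-GFP and 2.87 in AAV-*Wee1-AS*. *Fads3* (NCBI gene 60527, chromosome 19, 10040855 to 10060113, plus strand), the third gene of the same cluster, had 147 and 53 counts, a log2 ratio of -1.18 (-1.69 to -0.75). The 3 desaturases were thus all lower by these counts, by 1.02-fold for *Fads1*, 1.21-fold for *Fads2* and 2.27-fold for *Fads3*. With the GC and length trends removed, *Fads1* was at 0.22 and *Fads2* at 0.23, on the other side of equality, and *Fads3* was at -1.02.

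**Figure D2:**
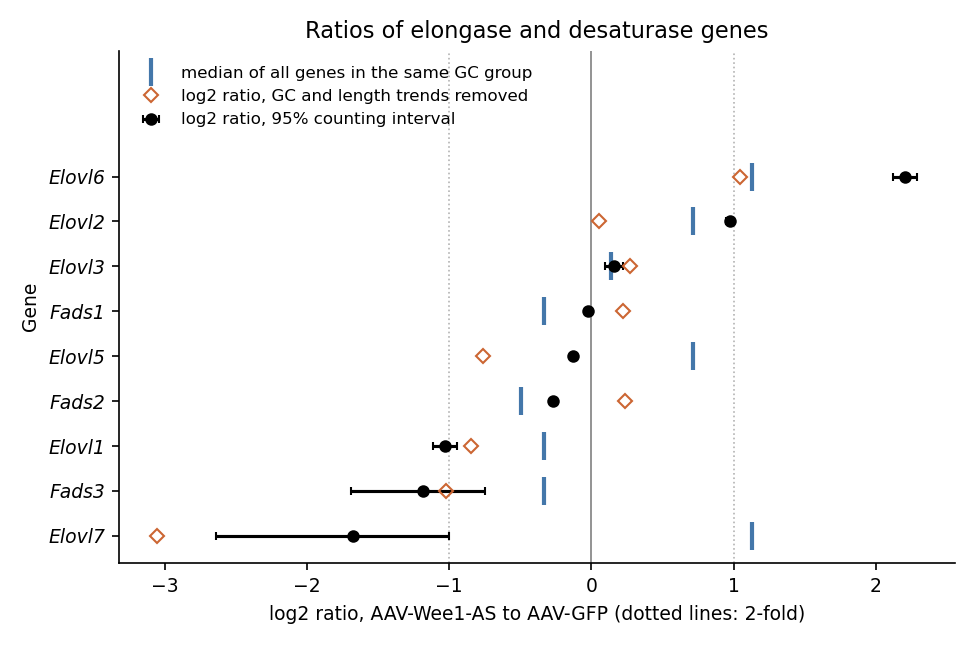
Log2 ratios between the libraries, AAV-Wee1-AS over AAV-GFP, for the 9 genes (horizontal axis, dotted lines at 2-fold), 1 library per group. Black points are the ratios with their 95% counting intervals, blue ticks the median of all genes of the same GC group (10 groups of equal size), and open diamonds the ratios with GC and length trends removed. Elovl6 has the highest ratio, 2.20, and remains highest at 1.04 after removal, while Fads1 and Fads2 lie on opposite sides of 0 before and after it.

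Across all genes the log2 ratio moved with the base composition of the transcript, and this touches each member. The Spearman coefficient with GC content was -0.67 and that with transcript length 0.37 over the 14995 genes with a GC value (94.6% of those kept), and genes are not independent replicates. The genes were divided by GC content into 10 groups of equal size. *Elovl6* has a GC content of 44.0%, in a group whose median log2 ratio was 1.13 and of which 55.8% were above 2-fold, and it lay at percentile 89.7 of that group. *Elovl2* has nearly the same GC content, 44.0%, and lay at percentile 60.5 of the next group, whose median was 0.71. *Elovl5*, with 44.8% in that same group, lay at percentile 17.1, and its log2 ratio differed by -0.84 from the median of that group. *Elovl7*, with 42.3%, lay at percentile 1.00 of its group, whose median was 1.13. *Elovl1* (52.5%), *Fads1* (52.2%) and *Fads3* (53.0%) fell in a group with a median of -0.33, at percentiles 10.5, 70.4 and 8.14, and *Fads2* (54.4%) lay at percentile 69.9 of a group with a median of -0.50. *Elovl3* (49.5%) lay at percentile 51.7 of its group, whose median was 0.14.

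**Figure D3:**
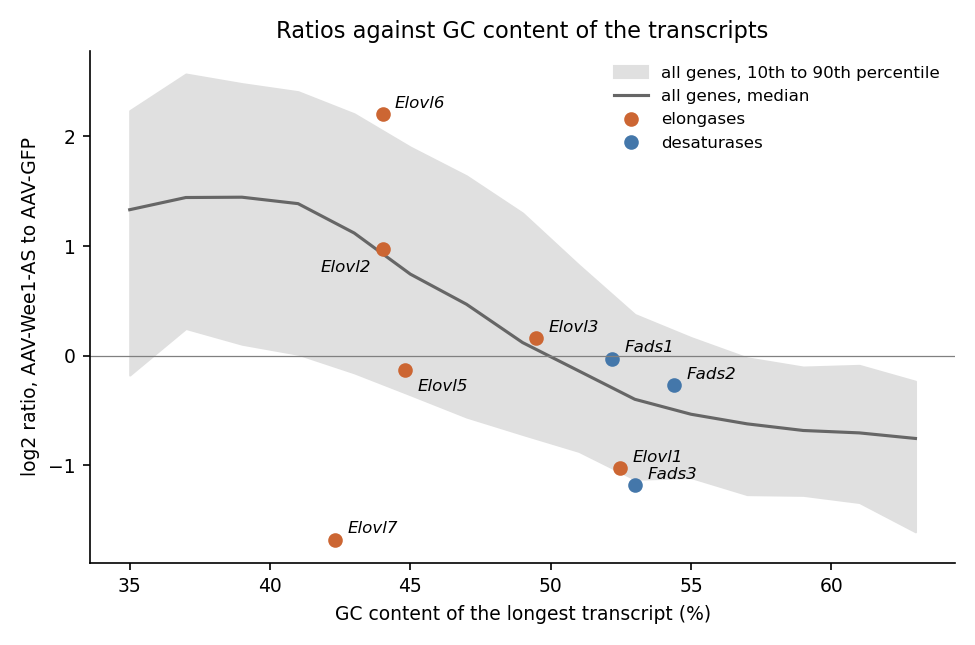
Log2 ratio, AAV-Wee1-AS over AAV-GFP (vertical axis), against the GC content of the longest transcript in percent (horizontal axis). The line is the median and the band the 10th to 90th percentile of all genes in bins of GC content, orange points are elongases and blue points desaturases. Elovl6, at 44.0% GC and 2.20, lies above the band. Elovl7, at 42.3% and -1.68, and Fads3, at 53.0% and -1.18, lie below it. Elovl1, at 52.5% and -1.03, lies just inside the lower edge, and Elovl2, Elovl3, Elovl5, Fads1 and Fads2 lie inside the band.

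When both trends were removed by lowess fits, 5 members were higher and 4 lower, beside 50.1% and 49.9% of the genes with a GC value. *Elovl6* was then at a log2 ratio of 1.04, *Elovl3* at 0.27, *Fads2* at 0.23, *Fads1* at 0.22 and *Elovl2* at 0.05. *Elovl5* was at -0.76, *Elovl1* at -0.85, *Fads3* at -1.02 and *Elovl7* at -3.05. Past 2-fold were 3 of 9, beside 14.7% of the 14995 genes. *Elovl6* was on the higher side, with 6.99% of the genes, and *Elovl7* and *Fads3* were on the lower side, with 7.72%. *Fads1* and *Fads2* therefore changed sign, the ratio of *Elovl2* was no longer near 2-fold, and the ratio of *Elovl5* moved away from equality. The part of base composition in these ratios was not tested, and with 1 library per group it cannot be told apart from the treatment.

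Estimated counts are divided among overlapping transcripts, so the members with several transcripts were also described by transcript. Nearly all counts of *Elovl2*, *Elovl5* and *Fads1* were on 1 transcript in both libraries (98.3% to 99.5%), and *Fads2* has a single one. In *Elovl1*, the main transcript of 1811 bases held 61.7% of the gene's counts in AAV-GFP and 69.8% in AAV-*Wee1-AS*, with 2491 and 1152 counts. A predicted longer transcript of 4082 bases held 25.9% (exact binomial 95% interval 24.6% to 27.3%) and 12.1% (10.5% to 13.7%), with 1048 and 199 counts. Without this longest transcript, an alternative chosen after its values were seen, the log2 ratio of *Elovl1* was -0.78 (-0.87 to -0.69), inside the 2-fold limit. The smallest transcript of *Elovl1*, of 1620 bases, had 102 and 110 counts, a log2 ratio of 0.37. The 3′ end of *Elovl1* meets that of *Cdc20*, a mitotic activator gene on the opposite strand, which had 218 and 82 counts, a log2 ratio of -1.13. The libraries were made with a stranded kit, but whether strand was used in counting is not stated in the sources used here.

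**Figure D4:**
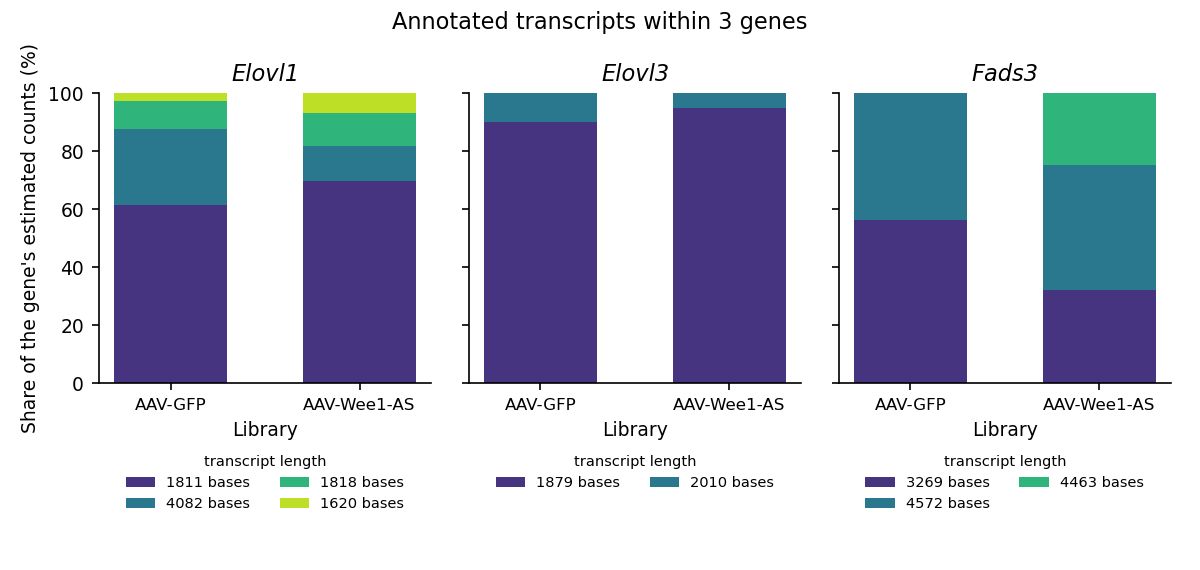
Share of a gene's estimated counts in percent (vertical axis) on each annotated transcript of Elovl1, Elovl3 and Fads3 in the AAV-GFP and AAV-Wee1-AS libraries, 1 library per group. Colors mark transcripts by their length in bases. The share of the 4082-base transcript of Elovl1 is 25.9% in AAV-GFP and 12.1% in AAV-Wee1-AS, and the 4463-base transcript of Fads3 has counts in AAV-Wee1-AS only.

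In *Elovl3*, the main transcript of 1879 bases held 90.1% and 94.8% of the counts, with 3696 and 3624 counts and a log2 ratio of 0.24, while a predicted transcript of 2010 bases had 406 and 197 counts, a log2 ratio of -0.77. In *Fads3*, the coding transcript of 3269 bases had 83 counts in AAV-GFP and 17 in AAV-*Wee1-AS*, a log2 ratio of -1.91. The other 2 transcripts of *Fads3* are predicted and noncoding, and had 64 and 23 counts (4572 bases) and 0 and 13 counts (4463 bases), where 0 of 147 counts allows a share of up to 2.48% (exact binomial). The coding transcript held 56.5% of the *Fads3* counts in AAV-GFP (48.0% to 64.6%) and 32.1% in AAV-*Wee1-AS* (19.9% to 46.3%), and these intervals do not overlap. The intervals cover counting error only and not the error of dividing reads among transcripts.

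The enzymes that complete the elongation cycle were measured alongside. Of 8 genes listed as partners, 6 passed the count minimum, 3 were higher and 3 lower, none was past 2-fold, beside 31.0% of all genes, and the median log2 ratio was 0.00473. *Hsd17b12*, the ketoacyl-CoA reductase of the cycle, had 9757 and 9608 counts, a log2 ratio of 0.24 (0.20 to 0.28). *Hacd3*, a dehydratase, had 5888 and 8435 counts, a log2 ratio of 0.78 (0.73 to 0.83), the highest of the list. *Tecr*, the enoyl-CoA reductase of the last step, had 16276 and 9051 counts and the lowest ratio, -0.58 (-0.62 to -0.55). The ratios of the partners thus ran from -0.58 to 0.78, while those of the 6 elongases ran from -1.68 to 2.20. With the GC and length trends removed, *Tecr* was at 0.25, *Hacd3* at 0.00283 and *Hsd17b12* at -0.24, with 2 partners higher, 4 lower and a median of -0.34. *Elovl4*, an elongase of very long chains that is not a member of the group described here, had 2 counts in AAV-GFP and 0 in AAV-*Wee1-AS*.

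Stearate made by ELOVL6 is the substrate of the stearoyl-CoA desaturases, which form oleate with electrons passed from cytochrome b5. In this list, 11 of 12 genes passed the count minimum, 6 were higher and 5 lower, 2 were above 2-fold and 1 was below 0.5-fold, beside 22.2% and 8.71% of all genes, and the median was 0.06. *Scd1*, the main hepatic isoform, had 531673 and 571011 counts, a log2 ratio of 0.37 (0.36 to 0.37), and its TPM was 434 times that of *Elovl6* in AAV-GFP and 121 times in AAV-*Wee1-AS*. *Scd2* had 962 and 838 counts, a log2 ratio of 0.06 (-0.07 to 0.20). *Scd3* had 1464 counts in AAV-GFP and 0 in AAV-*Wee1-AS*, at least 406-fold lower against a floor of 3 counts, and reads of these closely related paralogs can be assigned to one another, so this value is uncertain. *Cyb5r4*, a cytochrome b5 reductase, had the highest ratio, with 561 and 1196 counts and a log2 ratio of 1.35, 2.55-fold higher. With both trends removed, *Scd1* was at -0.26, *Scd2* at -0.28 and *Cyb5r4* at 0.37, and the median of the list was -0.11.

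**Figure D5:**
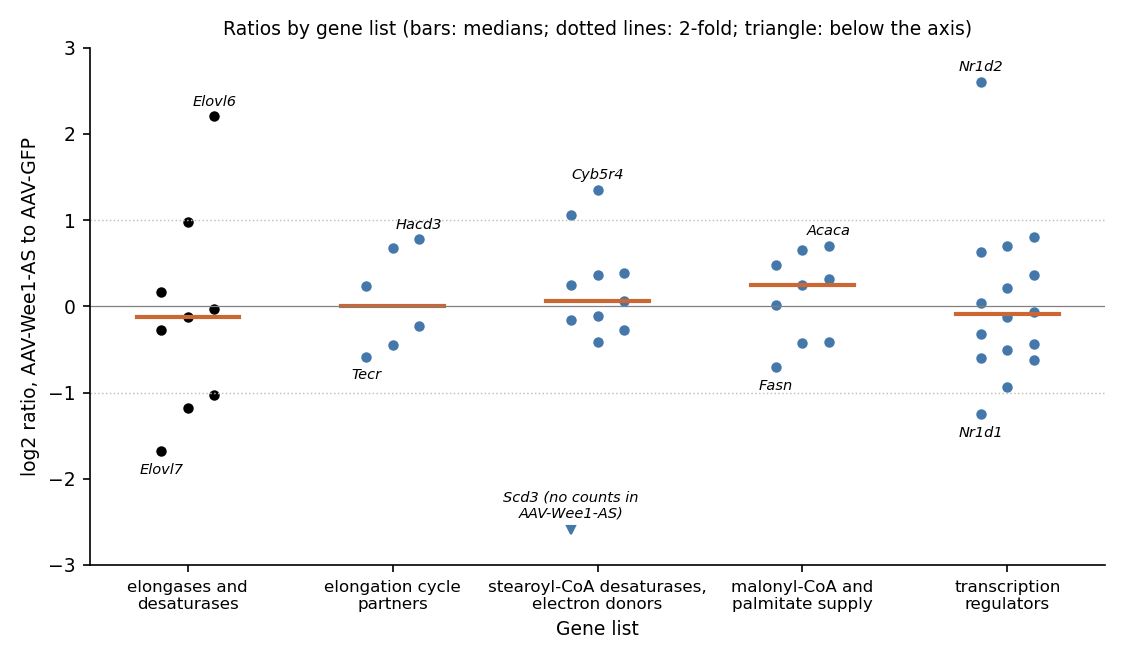
Log2 ratio, AAV-Wee1-AS over AAV-GFP (vertical axis, dotted lines at 2-fold) of the 9 elongases and desaturases (black) and of 4 lists of related genes (blue), 1 point per gene, 1 library per group. Orange bars are medians, the highest and lowest gene of each list is named, and the triangle stands for Scd3, which has no counts in AAV-Wee1-AS and is drawn at the lower edge because its fitted ratio depends on the prior count. The medians of the lists lie between -0.13 and 0.25, and Elovl6 at 2.20 is the highest point apart from Nr1d2 at 2.61.

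Palmitate and malonyl-CoA, the substrates of ELOVL6, come from the lipogenic enzymes. Of 9 genes of this supply, all past the count minimum, 6 were higher and 3 lower, none was past 2-fold, beside 31.0% of all genes, and the median was 0.25. *Acaca*, the acetyl-CoA carboxylase that makes malonyl-CoA, had the highest ratio, 0.70 (0.66 to 0.74), from 7817 and 10594 counts. *Fasn*, which makes palmitate, had the lowest, -0.71 (-0.73 to -0.69), from 88364 and 45025 counts. *Elovl6* and *Fasn*, which act in succession on the same chain, were thus on opposite sides of equality by 2.20 and -0.71. With the GC and length trends removed, they stood at 1.04 and -0.73, and *Acaca* was at -0.09.

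Among 16 transcription regulators of lipogenic genes, all past the count minimum, 7 were higher and 9 lower with a median of -0.09, and 1 was above 2-fold and 1 below 0.5-fold, beside 22.2% and 8.71% of all genes. *Srebf1*, which encodes SREBP-1c, had 33483 and 18436 counts, a log2 ratio of -0.60 (-0.62 to -0.57). *Nr1h3*, which encodes the liver form of LXR, had 8704 and 4724 counts, a log2 ratio of -0.62 (-0.67 to -0.57). *Mlxipl*, which encodes the carbohydrate-responsive factor ChREBP, was at 0.22 (0.16 to 0.27), and *Ppara*, the fatty acid receptor, was at 0.81 (0.78 to 0.84). The circadian repressor gene *Nr1d2* had the highest ratio, 2.61 (2.49 to 2.73), with 666 and 3389 counts, and its paralog *Nr1d1* had the lowest, -1.24 (-1.31 to -1.18), with 7777 and 2733 counts. Beside the ratio of -0.60 for *Srebf1*, those of *Elovl6*, *Elovl5*, *Fads1* and *Fads2* were 2.20, -0.13, -0.03 and -0.27. These members stood at 1.04, -0.76, 0.22 and 0.23 with the GC and length trends removed. The part of *Srebf1* in the ratios of the members was not tested. With both trends removed, *Nr1h3* was at 0.15, *Srebf1* at -0.28, *Mlxipl* at 0.52, *Ppara* at 0.49, *Nr1d2* at 1.26 and *Nr1d1* at -0.57, and 11 regulators were higher and 5 lower.

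*Elovl3* is known in mouse liver for a daily rhythm and for a higher level in males, and lists of both kinds were examined beside its ratio of 0.16. Of 16 core clock genes past the count minimum, 11 were higher and 5 lower, 4 were above 2-fold and 2 below 0.5-fold, beside 22.2% and 8.71% of all genes, and the median was 0.29. *Dbp*, a clock output gene, was at -0.59 (-0.65 to -0.54), with 8019 and 4429 counts, and at 0.31 with the GC and length trends removed. *Npas2* had 15 counts and 0 counts, at least 4.16-fold lower. Of 12 male-biased liver genes, 9 were higher and 3 lower, beside 49.5% and 50.5% of all genes, with a median of 0.80, and 6 were above 2-fold and 0 below 0.5-fold, beside 22.2% and 8.71% of all genes. This median was 0.46 with FPKM and 0.49 with TPM, each with a pseudocount of 1. *Hsd3b5* had the highest ratio, 3.78 (3.60 to 4.00), from 228 and 2638 counts, and *Mup20* the lowest, -0.37 (-0.39 to -0.36). *Mup20* was at -1.33 with the GC and length trends removed, and thus below 0.5-fold. The male-biased list then still had 9 genes higher and 3 lower, with a median of 0.79. Of 10 female-biased liver genes past the count minimum, 3 were higher and 7 lower, beside 49.5% and 50.5% of all genes. In this list 1 was above 2-fold and 4 below 0.5-fold, beside 22.2% and 8.71% of all genes, and the median was -0.71. This median was -0.28 with a minimum of 50 counts or of 10 counts in both libraries, and -0.06 with FPKM and a pseudocount of 1. In this list, *Cyp3a44* had 330 counts and 0 counts, at least 91.6-fold lower but with close paralogs that can take up its reads, and *Fmo2* had the highest ratio, 1.38 (1.17 to 1.61). With the GC and length trends removed, the female-biased list still had 3 genes higher and 7 lower, with a median of -0.72. *Fmo2* was then at 0.35, inside 2-fold and no longer the highest of the list. The times of day at which these livers were taken are not given in the sources used here, and the part of time or sex in the member ratios was not tested.

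Markers of liver cell types were read beside the members because several elongases are also expressed outside hepatocytes. All 6 hepatocyte markers were detected in both libraries, and their summed level was 76777 TPM in AAV-GFP and 85589 TPM in AAV-*Wee1-AS*, although 3 were higher and 3 lower and *Alb* alone went from 37459 to 53289 TPM. The summed level of 6 Kupffer cell and macrophage markers was 207 and 173 TPM, that of 5 endothelial markers 126 and 104 TPM, that of 5 lymphocyte markers 5.74 and 4.80 TPM, and that of 4 cholangiocyte markers 3.77 and 3.59 TPM. The 5 stellate cell and fibroblast markers summed to 108 and 114 TPM, with 3 higher and 2 lower and a median log2 ratio of 0.25. One of the 2 lower markers, *Col1a1*, had 3620 and 603 counts. The 4 erythroid markers summed to 1853 and 1003 TPM. Of 5 adipocyte markers, *Plin1*, *Lep* and *Ucp1* had 0 counts and *Adipoq* had 2 counts in each library, while *Fabp4*, which macrophages and endothelial cells also express, had 399 and 408 counts. The macrophage, endothelial, lymphocyte, cholangiocyte and erythroid sums were thus lower with AAV-*Wee1-AS*. Lower too were 6 of the 9 members, beside 50.5% of all genes, and 4 with the GC and length trends removed. Median log2 ratios were -0.03 for the macrophage, -0.09 for the endothelial and -0.03 for the cholangiocyte markers. They were -0.82 for the lymphocyte and -0.63 for the erythroid markers. Higher and lower were 3 and 3 of the macrophage markers, 2 and 3 of the endothelial, 1 and 4 of the lymphocyte, 2 and 2 of the cholangiocyte and 0 and 4 of the erythroid markers. *Marco* and *Timd4* of the macrophage list had log2 ratios of 1.60 and 1.40, and *Ptprc* of the lymphocyte list one of 1.13. The part of these cell types in the ratios of the members was not tested.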

How the data were processed

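RNA sequencing of poly-A RNA from mouse liver was analysed in 2 libraries, AAV-GFP and AAV-*Wee1-AS*, 1 per group. The authors deposited 1 table of 129299 RefSeq transcripts on mm10 with, per library, an estimated count, an FPKM value and a TPM value. The deposited estimated counts are whole numbers that equal FPKM times length times a constant per library, rounded up, which makes them estimates that divide reads among overlapping transcripts. The FPKM deposited by the authors is scaled to transcript length and library, and the TPM deposited by the authors also to an equal sum. The submitters' processing notes name Trimmomatic 0.38, HISAT2 2.1.0, SAMtools 1.9 and StringTie 2.1.3b, without their settings.

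Estimated counts, FPKM and TPM were summed per gene symbol. Counts were scaled by TMM (edgeR 4.0.16, R 4.3.3) and a prior count of 2 was added before log2 ratios were formed. A gene was kept where either library had 10 counts or more. A ratio above 2 or below 0.5 counted as past 2-fold. Intervals are exact (Clopper-Pearson, 95%) and cover counting error only, and a library at or under 3 counts was set to a floor of 3. GC content came from the longest GENCODE M21 transcript, and its trend and that of length were removed by lowess fits (span 0.3, 5 cycles). The steps were tested on simulated data. Python 3.11.15, pandas 2.3.3, scipy 1.17.1, statsmodels 0.14.6 and matplotlib 3.10.9 were used. Alternatives were other scalings (library totals, DESeq2 1.42.0 size factors, upper quartile, totals that leave out the 20 most abundant genes), a prior count of 0.5, other count minimums, FPKM or TPM with a pseudocount, the most abundant transcript alone, and removal of the trends.

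The members, the gene lists and the tests were chosen with earlier results of these data known. All 9 members are named. From each list other than the cell-type markers, the genes with the highest and the lowest ratio are named, and *Scd1*, *Scd2*, *Hsd17b12*, *Hacd3*, *Tecr*, *Srebf1*, *Nr1h3*, *Mlxipl*, *Ppara*, *Fasn*, *Acaca*, *Nr1d1* and *Dbp*. Among the markers, *Alb*, *Col1a1*, *Marco*, *Timd4*, *Ptprc* and the adipocyte markers are named, and this rule did not choose them. Overlapping genes and further genes with 0 counts in a library were named after their values were seen. With 2 libraries, no genes were sought for a pattern like that of a member.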

Additional observations from a re-analysis of the deposited data

How the results depend on the processing

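Of the 9 members, 4 were past 2-fold, and 1 (*Elovl6*) with FPKM and a pseudocount of 1, with TPM and a pseudocount of 1, and where the counting interval had to lie wholly past 2-fold. *Elovl1* was at -0.90 in both of these units and at -0.92 with TPM and a pseudocount of 0.1, under which *Elovl7* and *Fads3* were past 2-fold. Over all genes, 4908 were past 2-fold, 1336 with FPKM and a pseudocount of 1, 2046 with TPM and a pseudocount of 1, 2206 with the GC content and length trends removed, 3132 with the interval wholly past 2-fold and 8850 at a limit of 1.5-fold. Of genes past 2-fold, 71.9% were higher, 56.8% under upper-quartile scaling, 59.1% with the length trend removed and 47.5% with both trends removed. *Elovl3* was at -0.0451 under the upper quartile, *Fads1* at 0.22 and *Fads2* at 0.23 with both trends removed, and at 0.31 and 0.23 with the median of genes of like GC content (10 groups) subtracted, an alternative chosen after seeing the data. List medians reversed for malonyl-CoA and palmitate supply (-0.23) and core clock genes (-0.00838) with the length trend removed, for transcription regulators (0.11) with both trends removed and for peroxisomal chain shortening (-0.13) under the upper quartile. Medians near 0 also changed sign for elongation cycle partners (-0.20 under the upper quartile, -0.34 with both trends removed), for stearoyl-CoA desaturases and electron donors (-0.14 and -0.11) and for ceramide synthases and transport proteins (-0.13 and -0.12), among other settings. The causes were not tested. *Elovl6* kept its direction under its 13 settings, at 1.04 to 2.22, as did *Elovl2* at 0.05 to 0.99, *Elovl5* at -0.84 to -0.11, *Elovl7* at -3.05 to -0.18, *Fads3* at -1.91 to -0.39 and, over 14 settings, *Elovl1* at -1.31 to -0.69. The order by level was the same with FPKM and with the most abundant transcript. Depth limits *Elovl7* (17 counts in AAV-*Wee1-AS*) and *Fads3* (53). No paired analysis was possible because each group has 1 library.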

Other observations

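Genes that take up, shorten or incorporate the products of the elongases and desaturases differed in both directions between the libraries. Peroxisomal chain shortening turns very-long-chain acyl groups into docosahexaenoic acid and shorter chains, and of its 15 listed genes 8 were higher with AAV-*Wee1-AS* and 7 lower, with 2 above 2-fold and 0 below 0.5-fold, beside 22.2% and 8.71% of all genes. Their median log2 ratio was 0.08, and -0.13 under upper-quartile scaling. *Abcd2*, a peroxisomal importer of very-long-chain acyl-CoA, had the highest ratio, 1.43 (95% counting interval 1.26 to 1.60), with 410 and 922 counts in AAV-GFP and AAV-*Wee1-AS*. *Acaa1b*, a peroxisomal thiolase, had the lowest, -0.84 (-0.85 to -0.83), with 187818 and 87201 counts.

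Of 13 genes for the activation of polyunsaturated acyl chains and their incorporation into phospholipids, 5 were higher and 8 lower, with a median of -0.51, 3 above 2-fold and 1 below 0.5-fold, beside 22.2% and 8.71% of all genes. *Acsl4*, an acyl-CoA synthetase that prefers arachidonic acid, had the highest ratio, 1.60 (1.46 to 1.74), with 581 and 1467 counts, and *Lpcat4*, a lysophospholipid acyltransferase, the lowest, -1.16 (-2.02 to -0.49), with 59 and 21 counts. Of 8 genes for ceramide synthases and fatty acid transport proteins, which use long and very long acyl chains, 4 were higher and 4 lower, with a median of 0.07. *Cers6*, a ceramide synthase that prefers palmitoyl-CoA, was at 1.14 (0.98 to 1.32), with 429 and 792 counts, and *Slc27a4*, a fatty acid transport protein, at -0.88 (-0.95 to -0.82), with 5902 and 2666 counts. With the trends in GC content and length removed, *Abcd2* was at -0.05, *Acaa1b* at 0.03, *Acsl4* at 0.04, *Lpcat4* at -0.27, *Cers6* at -0.27 and *Slc27a4* at -0.42, and the median of the phospholipid list was -0.10.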
